A study of Mus musculus with 24 samples.

Results

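The sirtuins are the 7 mouse genes Sirt1 to Sirt7, chosen by family membership and found by symbol in a table of read counts for 55416 gene identifiers. All 7 were among the 18005 genes with enough counts to be tested. Transcripts were measured by poly(A) RNA sequencing of the inner medulla, the innermost zone of the kidney, in mice of the inbred strain C57BL/6 injected at 9 to 10 weeks of age. The groups were male cisplatin (6 libraries), male saline (6), female cisplatin (5) and female saline (7). Every mouse had a single intraperitoneal injection of 100 µl, of cisplatin at 15 mg/kg dissolved in saline or of saline alone, and tissue was taken 72 h later. Cisplatin is a platinum anticancer drug that damages DNA and is toxic to renal tubules. Whether a library is 1 mouse is not said in the labels, so p-values measure the spread between libraries, which may be technical.

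Sirtuins are enzymes that use NAD+, the oxidised form of nicotinamide adenine dinucleotide, to remove acetyl and other acyl groups from lysines, and some also transfer ADP-ribose. Since NAD+ is consumed in the reaction, their activity is tied to its supply. Sirt1, Sirt6 and Sirt7 act mainly in the nucleus, Sirt2 mainly in the cytosol, and Sirt3, Sirt4 and Sirt5 in mitochondria. In kidney, Sirt1 and Sirt3 are known for protecting tubules in models of acute injury. Transcript counts show neither protein nor enzyme activity.

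Total counts per library were between 18084242 and 27279102. Markers of the collecting duct, a defining structure of the inner medulla, were abundant. Aqp2, its vasopressin-regulated water channel, averaged 6718 ± 1702 CPM (read counts scaled to a common library size) in male cisplatin and 6558 ± 770 CPM in male saline (SD, n = 6 each), and 5832 ± 1152 CPM in female cisplatin (n = 5) and 6436 ± 1624 CPM in female saline (n = 7). Umod, a marker of the thick ascending limb, which lies outside the inner medulla, ranged over 563 to 3462 CPM in male cisplatin and 974 to 6807 CPM in male saline. It ranged over 1652 to 3315 CPM in female cisplatin and 290 to 5987 CPM in female saline. The injury marker Lcn2 ranged over 213 to 6589 CPM in male cisplatin and 57.8 to 67.3 CPM in male saline, and over 111 to 3529 CPM in female cisplatin and 49.4 to 129 CPM in female saline. One library stood apart: the median gene of male cisplatin replicate 5 lay 0.40 log2 units from its group's median, against at most 0.23 in the other 23 libraries.

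Promoter sequence is shown for Sirt1 and Sirt6, nuclear members of which one fell and one rose in males. Each run covers 250 bases before to 50 bases after the transcription start that RefSeq gives on build GRCm38.p6, and lies on the minus strand, at chr10:63338986-63339285 for Sirt1 and chr10:81627517-81627816 for Sirt6. Capitals mark the E-box (CACGTG, the same on both strands) in Sirt1 and the core motif of ETS factors (CCGGAA or, on the other strand, TTCCGG) in Sirt6.
Sirt1: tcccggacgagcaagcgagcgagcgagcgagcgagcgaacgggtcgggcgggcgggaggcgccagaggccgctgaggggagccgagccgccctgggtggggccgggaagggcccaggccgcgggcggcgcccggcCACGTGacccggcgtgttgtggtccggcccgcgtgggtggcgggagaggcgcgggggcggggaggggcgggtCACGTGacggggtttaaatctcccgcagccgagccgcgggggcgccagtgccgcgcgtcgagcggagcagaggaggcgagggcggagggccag
Sirt6: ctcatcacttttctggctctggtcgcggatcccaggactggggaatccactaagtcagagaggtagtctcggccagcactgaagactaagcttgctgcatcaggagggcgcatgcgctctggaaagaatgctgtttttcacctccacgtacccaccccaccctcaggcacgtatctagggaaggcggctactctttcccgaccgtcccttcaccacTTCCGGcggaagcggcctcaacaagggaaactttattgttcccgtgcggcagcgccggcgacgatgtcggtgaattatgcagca
The Sirt1 window holds 2 E-boxes, beginning at positions -115 and -43 from the start, and no ETS core. Of 32851 promoter windows of the same length, 7.15% hold an E-box. The Sirt6 window holds 1 ETS core at -34 and no E-box, and the Sirt7 window holds 2 ETS cores, at -51 and 20. An ETS core is also in the windows of Sirt3 (-84) and Sirt4 (-227), whose transcripts were not called, and was in 14.9% of all windows. The Sirt1 window is 79% G or C and holds 7 GC boxes (GGGCGG or CCGCCC), a motif found in 35.7% of all windows, and the Sirt6 window is 57.3% G or C and holds none. Sirt6 has another annotated start, whose window holds 1 GC box and no E-box or ETS core. Sirt3 has another start too, whose window holds 4 GC boxes and no E-box or ETS core. These matches describe letters only, not bound sites.

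Sirt7 and Sirt2 were the most abundant sirtuin transcripts of the inner medulla per length, and the mitochondrial Sirt5 and Sirt3 the least. The length used was that of all annotated exons of a gene merged, not that of the transcripts present in this tissue. Over all 24 libraries Sirt7 averaged 16.7 CPM per kilobase of exon and Sirt2 16.2. Next were Sirt4 at 9.26, Sirt6 at 8.07 and Sirt1 at 7.70 CPM per kilobase, then Sirt3 at 3.18 and Sirt5 at 2.44. Neighbours within the first 2 tiers did not keep their order: Sirt7 stood above Sirt2 in 10 of 24 libraries, Sirt4 above Sirt6 in 17, and Sirt6 above Sirt1 in 13. The steps from Sirt2 to Sirt4, from Sirt1 to Sirt3 and from Sirt3 to Sirt5 held in 24 of 24 libraries. In CPM, which is not divided by length, Sirt7 averaged 86.1 ± 13.02 (SD, n = 24), above 83.7% of the tested genes, and Sirt5 14.8 ± 2.51, above 47.5% of them. Between them came Sirt2 at 81.5, Sirt1 at 41.1, Sirt6 at 22.5, Sirt4 at 22.2 and Sirt3 at 19.0 CPM. The wide step from Sirt4 to Sirt3 per kilobase thus depends on the lengths used, 2398 and 5973 exon bases. The counts of a sirtuin in a library ran from 230 for Sirt5 to 2950 for Sirt7.

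**Figure D1:**
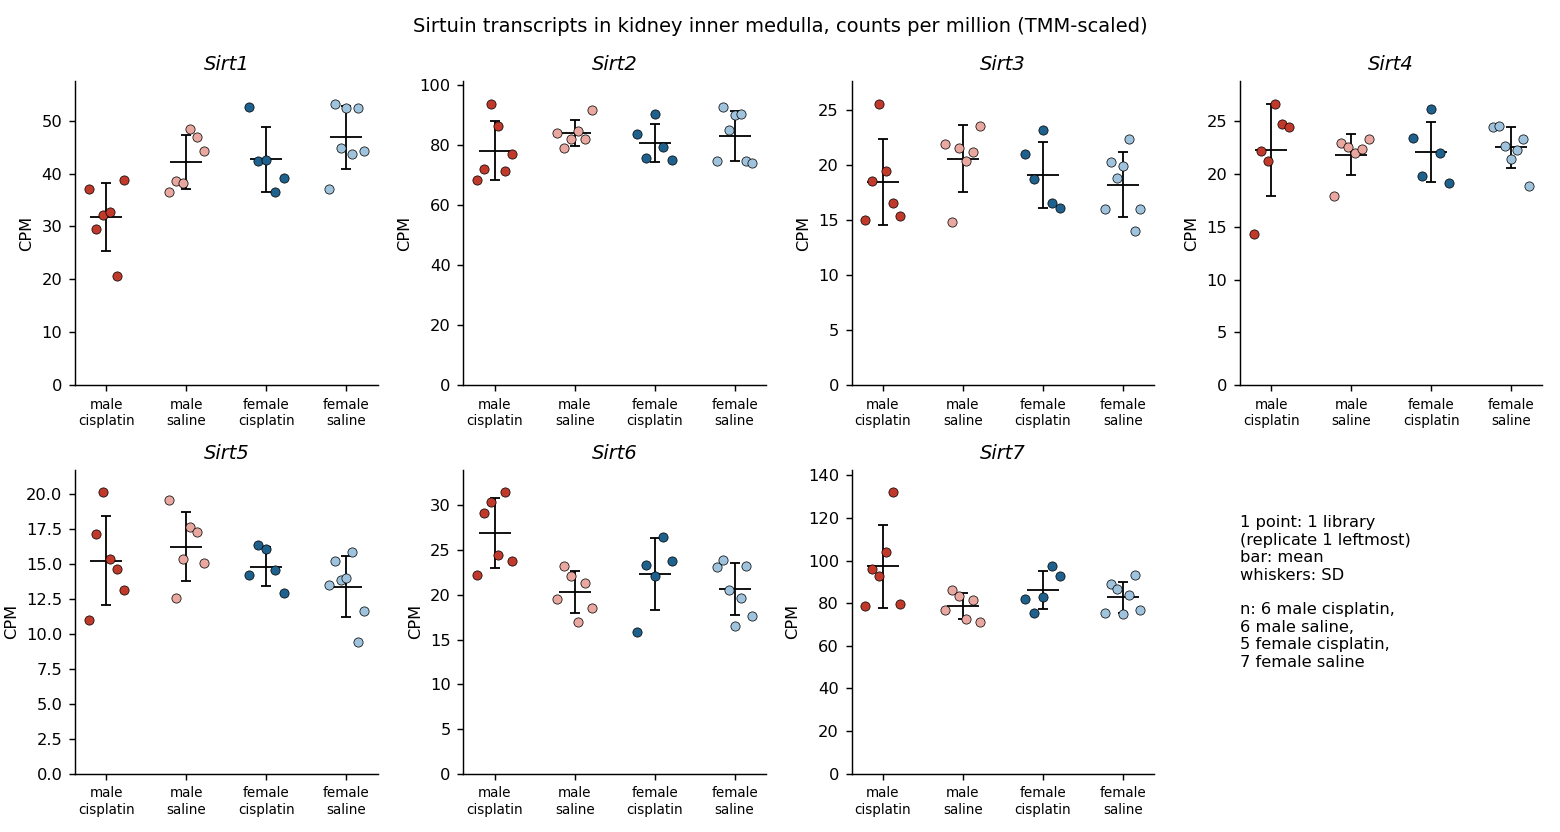
CPM of each sirtuin (vertical axis, linear and starting at 0) in male cisplatin, male saline, female cisplatin and female saline libraries. Each point is a library, the bar is the mean and the whiskers are the SD. Male cisplatin Sirt1 sits lowest of the 4 groups (mean 31.8 CPM) and male cisplatin Sirt6 and Sirt7 sit highest (means 26.9 and 97.3 CPM), with overlap in every panel.

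After cisplatin, Sirt1 fell and Sirt6 and Sirt7 rose in males, and the cytosolic and mitochondrial members did not pass the test. Sirt1, which deacetylates Trp53, FoxO factors and the NF-kB subunit Rela, was at 37.2, 29.4, 32.2, 32.7, 20.6 and 38.8 CPM in male cisplatin replicates 1 to 6, against 36.5, 38.7, 38.2, 48.4, 47.0 and 44.4 CPM in male saline replicates 1 to 6. The 4 lowest of these 12 values were cisplatin libraries, and the groups overlapped between 36.5 and 38.8 CPM. The log2 fold change was -0.41 ± 0.13 (SE), a 0.755-fold level, with a Benjamini-Hochberg adjusted p of 0.0278 in edgeR's quasi-likelihood test.

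Sirt6, a chromatin-bound histone deacetylase with roles in DNA repair and in restraint of glycolysis, was at 22.2, 29.1, 30.4, 24.5, 31.5 and 23.8 CPM in male cisplatin, against 19.6, 23.3, 22.1, 17.0, 21.3 and 18.6 CPM in male saline. The 5 highest of the 12 values were cisplatin libraries, and only replicate 1 of the cisplatin group lay within the saline range. The log2 fold change was 0.41 ± 0.13 (edgeR adjusted p = 0.0259). Sirt7, a nucleolar and chromatin deacetylase tied to ribosomal RNA transcription, was at 78.9, 96.1, 92.7, 104, 132 and 79.8 CPM in male cisplatin, against 77.0, 86.3, 83.6, 72.5, 81.4 and 71.2 CPM in male saline. Replicates 2 to 5 of the cisplatin group lay above all saline libraries and replicates 1 and 6 within their range. The change was 0.31 ± 0.10 on the log2 scale (edgeR adjusted p = 0.0392).

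Of the 7 sirtuins, 3 were thus called in males, 2 higher and 1 lower. Of all 18005 tested genes 20.7% were called in this comparison, 13.2% higher and 7.54% lower, so 3 of 7 is read against a background of about 1 gene in 5. The median log2 fold change was -0.09 over the sirtuins and 0.02 over all tested genes. The 3 calls were close to the threshold. DESeq2 also called all 3 (adjusted p = 0.016 for Sirt1, 0.0145 for Sirt6 and 0.0294 for Sirt7), and over 19 alternative settings the adjusted p ranged over 0.00941 to 0.0662 for Sirt1, 0.0145 to 0.0726 for Sirt6 and 0.0132 to 0.130 for Sirt7.

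Single libraries and processing choices decided these calls. With no filter on low counts none of the 3 was called. Fitting the male libraries alone ended the calls of Sirt1 and Sirt7. Library totals in place of TMM scaling ended those of Sirt6 and Sirt7. So did a covariate for markers of the proximal tubule and thick ascending limb. Sirt1 lost its call without male cisplatin replicate 2 (adjusted p = 0.0599) or male saline replicate 4 (0.0662), 5 (0.0611) or 6 (0.0512). Sirt6 lost its call without male cisplatin replicate 2 (0.0553), 3 (0.0608) or 5 (0.0637), or without male saline replicate 4 (0.0644) or 6 (0.0534). Sirt7 kept its call only without male cisplatin replicate 1 (0.0212) or 6 (0.0132) or male saline replicate 2 (0.041), and its adjusted p was between 0.0530 and 0.130 without any one of the other 9 libraries. Male cisplatin replicate 5, the library that stood apart, had the lowest Sirt1 and the highest Sirt6 and Sirt7 of all 24. Without it the log2 fold changes were -0.32 for Sirt1 (adjusted p = 0.0492), 0.34 for Sirt6 (0.0637) and 0.19 for Sirt7 (0.130). All 19 alternatives kept the direction of each of the 3 genes.

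**Figure D2:**
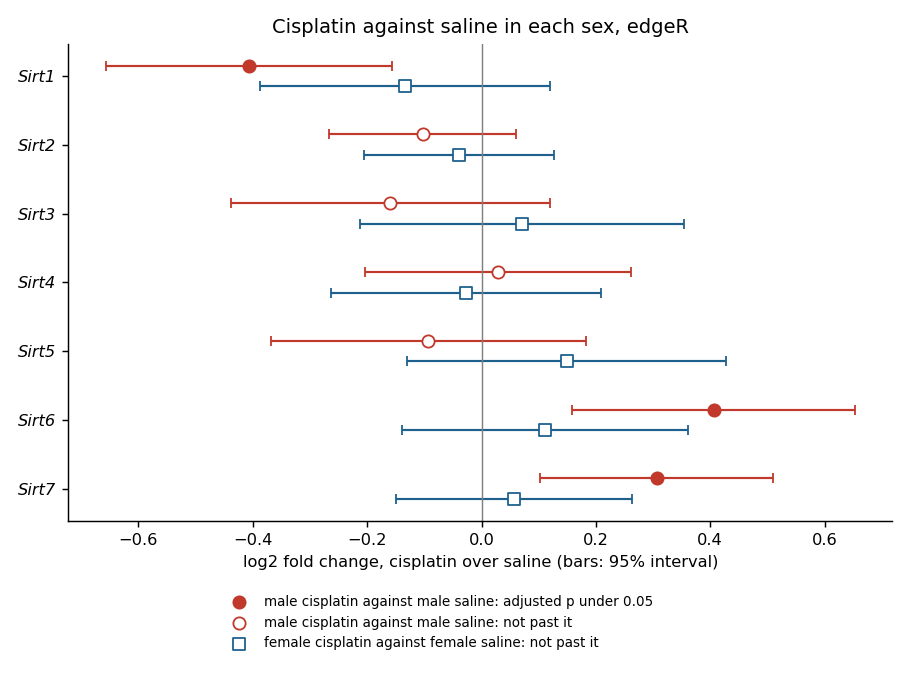
Log2 fold change of each sirtuin, cisplatin over saline, on the horizontal axis, in males (circles) and females (squares), with bars of 1.96 SE on each side. Filled symbols passed an adjusted p under 0.05 in edgeR; these were Sirt1 (-0.41), Sirt6 (0.41) and Sirt7 (0.31) in males.

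The balance of these transcripts within a library does not depend on how libraries are scaled. The ratio of Sirt6 to Sirt1 counts was 0.597, 0.991, 0.943, 0.749, 1.53 and 0.614 in male cisplatin replicates 1 to 6 (median 0.846), against 0.351 to 0.601 in male saline (median 0.494). Only replicate 1 of the cisplatin libraries lay within the saline range, and by less than 0.01 below its top. The ratio of Sirt7 to Sirt1 counts ranged over 2.06 to 6.41 in male cisplatin (median 3.03) and 1.499 to 2.23 in male saline (median 1.92), with replicates 1 and 6 of the cisplatin group inside the saline range. In females the Sirt6 to Sirt1 ratio was 0.300 to 0.727 after cisplatin (median 0.549) and 0.314 to 0.623 after saline (median 0.449). The female Sirt7 to Sirt1 ratio was 1.56 to 2.68 after cisplatin (median 1.95) and 1.44 to 2.04 after saline (median 1.78). Replicates 4 and 5 of the female cisplatin group lay above all female saline libraries in that ratio. These ratios were chosen after the levels had been seen and carry no test.

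**Figure D3:**
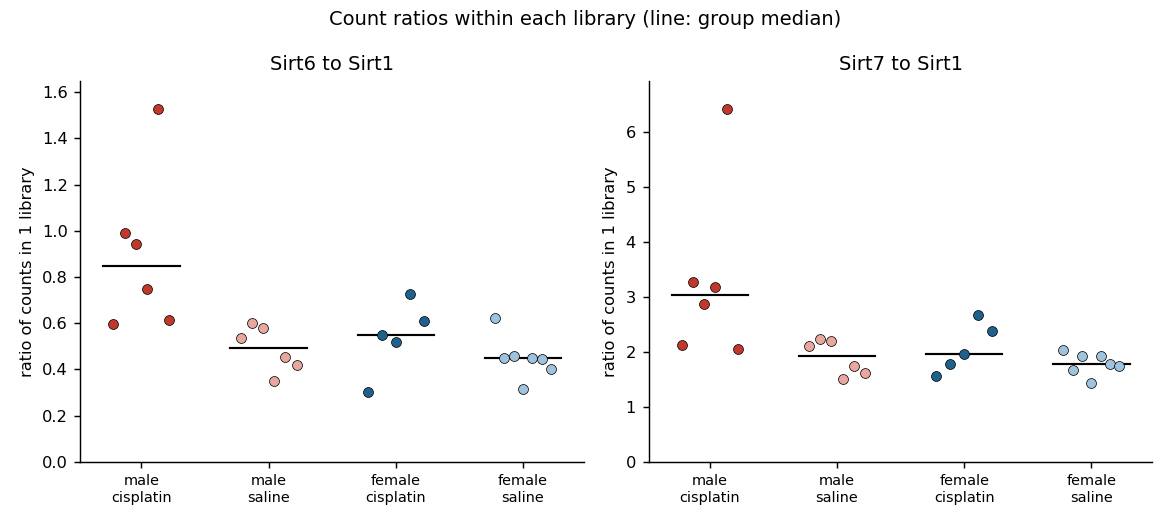
Ratio of Sirt6 to Sirt1 counts (left) and of Sirt7 to Sirt1 counts (right) within each library, on linear axes from 0, for the 4 groups; lines are group medians. The male cisplatin medians (0.846 and 3.03) are above those of male saline (0.494 and 1.92), and the highest point in both panels is male cisplatin replicate 5.

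Several other measures also differed between male cisplatin and male saline, where 13.2% of all tested genes were called higher and 7.54% lower. Of the 6 interstitial fibroblast markers 5 fell, and their summed level was 105 to 457 CPM in male cisplatin and 518 to 637 CPM in male saline. Of the 6 endothelial markers 4 fell, with sums of 603 to 2267 CPM in male cisplatin and 1857 to 2289 CPM in male saline. All 5 tested genes of the 6 on the tubular injury list rose, with sums of 2335 to 24480 CPM in male cisplatin and 1552 to 1932 CPM in male saline. Other marker lists held fewer calls. Of collecting duct principal cell markers 2 of 9 fell, of intercalated cell markers 2 of 6 and of thick ascending limb markers 1 of 6. Of urothelial markers 2 of 5 rose, and of 9 macrophage and monocyte markers 2 rose and 1 fell. None of 16 proximal tubule or 2 tested lymphocyte markers was called. No marker of these lists was at 0 in every library of a group. Genes with more than 8000 exon bases held 14.8 to 20.6% of the counts in male cisplatin (median 19.1%) and 19.8 to 21.4% in male saline (median 20.5%). The part of these measures in the Sirt1, Sirt6 and Sirt7 results was not tested. In bulk tissue, fewer cells of a type and less RNA per cell cannot be told apart.

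The share of counts in such long genes, looked at after these values were known, also ran with the nuclear sirtuins between libraries of 1 group. Over 24 libraries, with group means removed, it had a Pearson r of 0.60 with Sirt1 (permutation p = 0.0143, 0.0362 adjusted over 14 relations) and a Spearman rho of 0.38 (p = 0.0971). With Sirt6 r was -0.58 (p = 0.00632, adjusted 0.0221) and rho -0.57 (p = 0.0101). With Sirt7 r was -0.64 (p = 0.0155, adjusted 0.0362) and rho -0.46 (p = 0.0562). Without male cisplatin replicate 5 and female cisplatin replicate 4, the 2 libraries farthest from the median share, r was 0.23 for Sirt1, -0.47 for Sirt6 and -0.28 for Sirt7, and none of the 3 passed after adjustment (adjusted p = 0.525, 0.158 and 0.525). The relations of Sirt1 and Sirt7 thus rest on those 2 libraries, while that of Sirt6 lost less of its size (unadjusted permutation p = 0.0452).

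Sirt2, the tubulin deacetylase, and the mitochondrial members gave no call in males. Sirt2 ranged over 68.3 to 93.7 CPM (median 74.5) in male cisplatin and 78.9 to 91.6 CPM (median 83.0) in male saline, with 4 cisplatin libraries below all saline libraries and 1 above them. Its log2 fold change was -0.10 ± 0.08 (edgeR adjusted p = 0.388), with an interval (1.96 SE on each side) from -0.27 to 0.06. Sirt3, the main mitochondrial deacetylase, ranged over 15.0 to 25.6 CPM (median 17.5) in male cisplatin and 14.8 to 23.6 CPM (median 21.4) in male saline, and its interval ran from -0.44 to 0.12. Sirt4, a mitochondrial lipoamidase and ADP-ribosyltransferase, ranged over 14.3 to 26.7 CPM (median 23.3) in male cisplatin and 17.9 to 23.3 CPM (median 22.5) in male saline. Sirt5, which removes succinyl, malonyl and glutaryl groups, ranged over 10.97 to 20.1 CPM (median 15.0) in male cisplatin and 12.6 to 19.6 CPM (median 16.4) in male saline. The groups overlapped over most of their range in Sirt3, Sirt4 and Sirt5, whose log2 fold changes were -0.16 ± 0.14, 0.03 ± 0.12 and -0.09 ± 0.14 (edgeR adjusted p = 0.434, 0.882 and 0.658). The intervals reach -0.20 to 0.26 for Sirt4 and -0.37 to 0.18 for Sirt5, so changes of the size called for Sirt7 are outside that of Sirt4 and, upward, outside that of Sirt5.

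In females, edgeR called 0 of the 7 sirtuins, 0 at an unadjusted p under 0.05, and DESeq2 called 0. Of all tested genes 0.272% were called in this comparison, and 14.8% had an unadjusted p under 0.05 in edgeR. Sirt1 was at 52.7, 42.5, 42.6, 36.5 and 39.2 CPM in female cisplatin replicates 1 to 5, against a range of 37.0 to 53.3 CPM (median 44.9) in female saline. Sirt6 was at 15.8, 23.3, 22.1, 26.5 and 23.8 CPM in female cisplatin, against a range of 16.5 to 23.9 CPM (median 20.6) in female saline. Sirt7 was at 82.2, 75.3, 83.2, 97.6 and 93.0 CPM in female cisplatin, against 75.2 to 93.4 CPM (median 84.0) in female saline. The groups overlapped almost fully for all 3 genes. Their log2 fold changes had the same sign as in males at a smaller size: -0.13 ± 0.13 for Sirt1, 0.11 ± 0.13 for Sirt6 and 0.06 ± 0.10 for Sirt7. Replicate 4 of the female cisplatin group had the lowest Sirt1 and the highest Sirt6 and Sirt7 of its group.

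Of the other members, Sirt5 had the largest female estimate, 0.15 ± 0.14, and Sirt3 followed at 0.07 ± 0.14. Sirt5 was at 14.2, 16.3, 16.0, 14.5 and 12.96 CPM in female cisplatin and ranged over 9.46 to 15.9 CPM (median 13.9) in female saline. Sirt2 and Sirt4 had log2 fold changes of -0.04 ± 0.09 and -0.03 ± 0.12. Adjusted p was between 0.643 and 0.931 for all 7 genes in edgeR.

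The cisplatin effect was not shown to differ between the sexes for any sirtuin. In the test of that difference, female effect minus male effect, edgeR called 0 of 7 sirtuins and 0.0% of all tested genes, with 0 of 7 sirtuins and 772 of 18005 genes at an unadjusted p under 0.05, and DESeq2 called 0 sirtuins. The largest estimates were -0.29 ± 0.18 for Sirt6 (unadjusted p = 0.113) and 0.27 ± 0.18 for Sirt1 (unadjusted p = 0.147), both with an adjusted p of 0.943. Their intervals, -0.65 to 0.06 and -0.08 to 0.63, hold both no difference and one as large as the male effect. With Sirt7 at -0.25 ± 0.15, the 3 nuclear members each had a female estimate nearer 0 than the male one.

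Averaged over the sexes, Sirt1 fell (log2 fold change -0.27 ± 0.09, edgeR adjusted p = 0.0305) and Sirt6 rose (0.26 ± 0.09, adjusted p = 0.0347), while Sirt7 at 0.18 ± 0.07 did not pass (adjusted p = 0.0686). Of all tested genes 27.1% were called in this comparison, 16.2% higher and 10.9% lower, against 2 of 7 sirtuins. The cytosolic and mitochondrial members lay between -0.07 and 0.03. Over 30 alternatives the adjusted p ranged over 0.0134 to 0.0697 for Sirt1 and 0.00833 to 0.100 for Sirt6. With no filter on low counts neither was called, and library totals or the tubule marker covariate each ended the call of Sirt6. Sirt1 lost this call without male cisplatin replicate 2 (0.0501), male saline replicate 4 (0.055) or 5 (0.0521), or female cisplatin replicate 4 (0.0697) or 5 (0.0599). Sirt6 lost it without male cisplatin replicate 2, 3 or 5, male saline replicate 1, 4 or 6, female cisplatin replicate 2, 4 or 5, or female saline replicate 4 or 7, with adjusted p between 0.0503 and 0.0857.

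Without cisplatin, no sirtuin was called between the sexes. In female saline against male saline edgeR called 0 of 7 sirtuins and 0.189% of all tested genes, and DESeq2 called 0 sirtuins. At an unadjusted p under 0.05 in edgeR were 3.22% of all tested genes and 1 sirtuin. The 1 was Sirt5, at 9.46 to 15.9 CPM (median 13.9) in female saline and 12.6 to 19.6 CPM (median 16.4) in male saline, at -0.28 ± 0.14 on the log2 scale (unadjusted p = 0.0479, adjusted p = 0.9997). In female cisplatin against male cisplatin edgeR called 0 of 7 sirtuins and 0.156% of all tested genes, and DESeq2 called 0 sirtuins. At an unadjusted p under 0.05 in edgeR were 9.72% of all tested genes and 1 sirtuin. The 1 was Sirt1, at 36.5 to 52.7 CPM in female cisplatin and 20.6 to 38.8 CPM in male cisplatin, with 4 of the 5 female libraries above all 6 male ones. That is a log2 fold change of 0.42 ± 0.13 (unadjusted p = 0.00408, adjusted p = 0.282).

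Between libraries of the same group the sirtuins fell into sets that varied together. Log2 CPM with group means removed was correlated over the 24 libraries for all 21 pairs, with p from 100000 permutations of libraries within groups and adjustment over the 21. The values of a library share its depth, scaling and tissue makeup. Sirt2 and Sirt3 had a Pearson r of 0.84 and a Spearman rho of 0.83 (p = 1e-05, the smallest these permutations can give, and 2e-05, adjusted 0.00021 and 0.00042). Sirt3 and Sirt5, both mitochondrial, had r = 0.81 and rho = 0.70 (p = 3e-05 and 0.00047, adjusted 0.000315 and 0.00493). Sirt2 and Sirt5 had r = 0.63 and rho = 0.56 (p = 0.00354 and 0.0105, adjusted 0.0186 and 0.0441). The mitochondrial Sirt4 did not pass with any gene of this set. Its r was 0.405 with Sirt2, 0.22 with Sirt3 and 0.21 with Sirt5 (permutation p adjusted 0.342, 0.712 and 0.742).

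The nuclear members formed the other set, with opposite signs. Sirt6 and Sirt7 had r = 0.61 and rho = 0.66 (p = 0.00213 and 0.00187, adjusted 0.0149 and 0.0131), and Sirt1 and Sirt6 had r = -0.59 and rho = -0.58 (p = 0.00454 and 0.00672, adjusted 0.0191 and 0.0353). Sirt1 and Sirt7 had r = -0.58 and rho = -0.46, which did not pass (adjusted p = 0.0756 and 0.134). Leaving out for each pair the 2 libraries farthest from the median of the first gene gave r = 0.78 for Sirt2 with Sirt3, 0.71 for Sirt3 with Sirt5 and 0.67 for Sirt6 with Sirt7, which still passed. It gave 0.49 for Sirt2 with Sirt5 (permutation p = 0.0371, adjusted 0.156) and -0.54 for Sirt1 with Sirt6 (p = 0.0231, adjusted 0.121), which did not pass after adjustment.

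**Figure D4:**
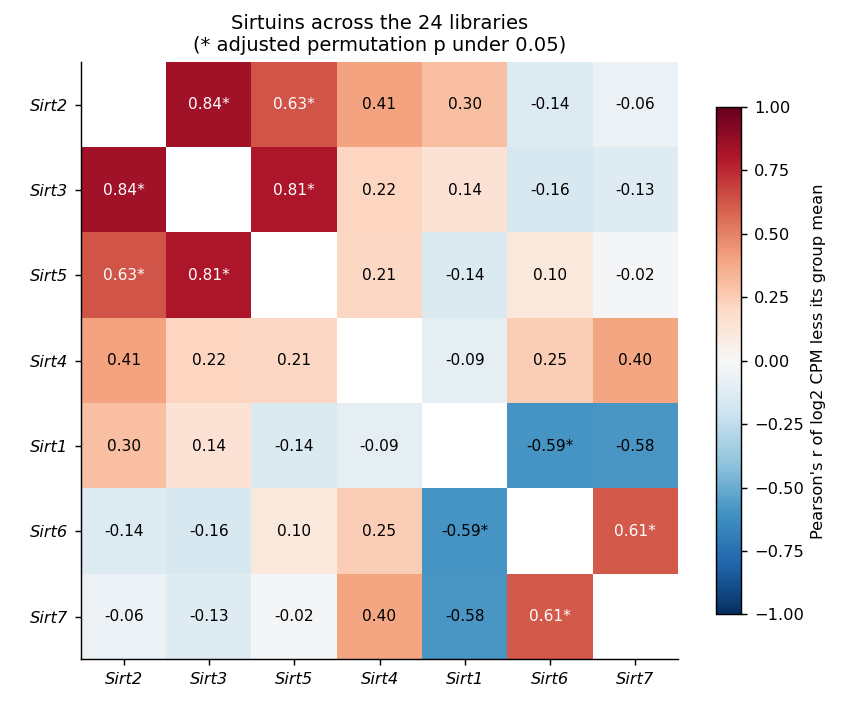
Pearson's r between sirtuins over the 24 libraries, from log2 CPM with the mean of each group removed; colour runs from -1 (blue) to 1 (red), and an asterisk marks an adjusted permutation p under 0.05. Sirt2, Sirt3 and Sirt5 form a positive block (0.63 to 0.84), and Sirt1 is negative with Sirt6 (-0.59) and Sirt7 (-0.58).

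The Sirt2, Sirt3 and Sirt5 set ran with the share of counts from genes of the mitochondrial chromosome, a relation also looked at after the values were known. That share was 2.29 to 6.63% in male cisplatin (median 4.27%) and 3.52 to 6.55% in male saline (median 5.95%), and 4.16 to 5.83% in female cisplatin (median 5.28%) and 2.85 to 6.38% in female saline (median 4.85%). With group means removed, its r was 0.85 with Sirt3 (rho 0.78), 0.72 with Sirt5 (rho 0.69) and 0.72 with Sirt2 (rho 0.67). Permutation p was 1e-05, 0.00075 and 0.00034 for r and 8e-05, 0.00074 and 0.00098 for rho, and all 6 were at or below 0.00457 after adjustment over 14 relations. Without male cisplatin replicate 5 and male saline replicate 2, the farthest 2 libraries, r was 0.87, 0.76 and 0.73. With Sirt4 the r was -0.06 (permutation p = 0.792). The highest Sirt3 and the highest mitochondrial share of all 24 libraries were both in male cisplatin replicate 3.

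Markers of tubules that lie outside the inner medulla also rose and fell with this set, without passing after adjustment. A tubule marker score, the mean log2 CPM of 22 markers of the proximal tubule and the thick ascending limb, had a centred r of 0.58 with Sirt2, 0.58 with Sirt3 and 0.52 with Sirt5 (permutation p = 0.0125, 0.00766 and 0.0209, adjusted over 14 relations 0.0874, 0.0874 and 0.0974). Without male cisplatin replicate 1 and female saline replicate 6, the farthest 2 libraries, r was 0.45, 0.44 and 0.23 (adjusted p = 0.41, 0.41 and 0.756). The mean log2 CPM of the injury markers had r between -0.42 and 0.34 with the 7 sirtuins, and none of the 7 passed (adjusted permutation p from 0.384 upward). By rank its strongest relation was with Sirt4, at rho -0.60 (permutation p = 0.00888, adjusted 0.0869), which did not pass either. Without male cisplatin replicate 6 and female cisplatin replicate 4, the farthest 2 libraries, r with Sirt4 was -0.51 (adjusted p = 0.41).

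The genes whose log2 CPM was most like each sirtuin's over the 24 libraries were named by rank of Pearson r, as a description. For Sirt3 these were Pank1, which makes a precursor of coenzyme A (r = 0.95), Syngr1, a synaptic vesicle protein (0.94), and Coq9, of coenzyme Q synthesis (0.93). For Sirt5 they were Cyp2j6, a cytochrome P450 (0.87), Nipsnap2, a mitochondrial protein (0.86), and Etfa, an electron carrier of fatty acid oxidation (0.85). For Sirt2 they were Slc39a13, a zinc transporter (0.87), Rbbp9 (0.86) and Osbpl1a (0.86). For Sirt1 they were Zfp131 (0.89), Smurf2, a ubiquitin ligase of TGF-beta signalling (0.88), and Dhx15, a splicing helicase (0.86). For Sirt6 they included Fbxw9 (0.88) and Miip (0.86). For Sirt7 they were Gpaa1, which attaches lipid anchors to proteins (0.90), and the unnamed loci 9130002K18Rik (0.89) and Gm43423 (0.88). Sirt4 had the weakest likenesses, with Irf2bp1 at 0.80 and Mib2 at 0.77. With group means removed, r stayed between 0.77 and 0.96 for the genes given here.

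Some sirtuins share exon bases with other genes, so their counts could hold or lack reads from those bases. Whether counting used strand, which the sources used here do not say, bears only on overlaps between opposite strands. In the reference annotation (GENCODE vM21), Sirt3 shares 418 exon bases (7.0% of its own) with Ric8a and 342 (5.7%) with Psmd13, both on the opposite strand. Both rose in males (log2 fold change 0.26 ± 0.08 and 0.31 ± 0.10, edgeR adjusted p = 0.0274 and 0.038), where Sirt3 had -0.16. Sirt7 shares 54 exon bases with the microRNA gene Mir6936 and 124 (2.4% of its own) with Mafg, both on the same strand. Mafg, a small Maf transcription factor, rose in males (log2 fold change 0.34 ± 0.11, edgeR adjusted p = 0.0289), where Sirt7 had 0.31. Reads in the bases shared by Sirt7 and Mafg cannot be told apart by strand, and their part in the Sirt7 value was not tested. Sirt2 shares 42 bases with Nfkbib, and Sirt1 shares 65 with the antisense transcript Gm16145, which averaged under 0.1 CPM in every group. Sirt4, Sirt5 and Sirt6 share exon bases with no annotated gene.

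Some genes next to a called sirtuin moved with it in males and some did not. Mafg, which overlaps Sirt7, rose as given above. Dnajc12, a co-chaperone gene 739 bases from Sirt1 on the opposite strand, fell in males (-0.81 ± 0.19, edgeR adjusted p = 0.00606), and Herc4 on its other side, 1127 bases away, had -0.16 ± 0.09 (adjusted p = 0.181). The neighbours of Sirt6, BC025920 and Ankrd24, had -0.09 ± 0.17 and -0.17 ± 0.22 and did not pass.

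Among genes tied to NAD+ synthesis, the largest rise called in males was that of Naprt, which starts the pathway from nicotinic acid. Not every gene of this list encodes an enzyme that makes NAD+. Acmsd does not, and some members are transporters, so a fall on this list is not always a fall in synthesis. In males 2 of 17 tested genes of the NAD synthesis list rose and 0 fell, a share below the 20.7% of all tested genes called in males. Naprt ranged over 15.9 to 51.1 CPM (median 33.2) in male cisplatin and 10.1 to 13.2 CPM (median 12.4) in male saline, with no overlap. The log2 fold change of Naprt was 1.48 ± 0.23 (edgeR adjusted p = 0.000317), and it was called in 19 of 19 alternatives. Nmrk1, a nicotinamide riboside kinase, ranged over 20.3 to 38.8 CPM (median 25.0) in male cisplatin and 16.2 to 20.1 CPM (median 18.7) in male saline, also without overlap. The log2 fold change of Nmrk1 was 0.56 ± 0.14 (adjusted p = 0.00768), and it too was called in 19 of 19 alternatives.

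Nampt, the rate-limiting enzyme of the salvage pathway, ranged over 60.3 to 148 CPM (median 109) in male cisplatin and 70.4 to 130 CPM (median 113) in male saline. Its log2 fold change was -0.03 ± 0.19 (edgeR adjusted p = 0.923), and that of the nuclear NAD+ synthase Nmnat1 was 0.05 ± 0.15 (adjusted p = 0.826). Averaged over the sexes 4 of 17 rose (Naprt, Nmrk1, Pnp at 0.59 and Ido1 at 1.24) and 2 fell (Kmo at -0.84 and Acmsd at -0.97). Of all tested genes 16.2% were called higher and 10.9% lower in this comparison. Over 30 alternatives to this average, Naprt and Nmrk1 were called in all 30 and Pnp in 29. The tubule marker covariate ended the calls of Pnp, Ido1, Kmo and Acmsd, and no filter on low counts also that of Acmsd. Ido1 was not called without female cisplatin replicate 4, nor Kmo without male saline replicate 3 or female cisplatin replicate 5, with adjusted p of at most 0.100 and 0.118. Acmsd was called in 19 of 30 (adjusted p 0.0153 to 0.161) and lost its call without any one of male cisplatin replicates 1 and 3, male saline replicates 1 and 3, female cisplatin replicates 4 and 5 and female saline replicates 4 and 5. In females edgeR called 0 of 17, with 5 at an unadjusted p under 0.05, as were 14.8% of all tested genes. DESeq2 called 1 in females, Naprt, whose edgeR log2 fold change was 0.96 ± 0.23 (adjusted p = 0.0672).

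The list of genes tied to NAD+ consumption held 17 tested genes, most of them enzymes that compete with sirtuins for NAD+, though Nnmt does not use it. Of these 17, 4 rose in males and 1 fell, against 13.2% of all tested genes called higher and 7.54% lower. The 4 were the interferon-inducible ADP-ribosyltransferases Parp14 (1.54 ± 0.29), Parp9 (1.21 ± 0.24), Parp10 (1.00 ± 0.22) and Parp12 (0.71 ± 0.18), with edgeR adjusted p between 0.00162 and 0.0095. Parp12 lost its call once that tubule score was a covariate (adjusted p = 0.0622, over a range of 0.00129 to 0.0622), and the other 3 were called in 19 of 19 alternatives. Parp14 ranged over 47.2 to 255 CPM (median 99.2) in male cisplatin and 39.7 to 47.9 CPM (median 42.7) in male saline, and the groups touched at the lowest cisplatin library. Tnks, a tankyrase, fell (-0.39 ± 0.13, adjusted p = 0.0424) but was called in 9 of 19 alternatives (adjusted p 0.0163 to 0.101). It lost its call with no filter on low counts, with the male libraries fitted alone, and without any one of male cisplatin replicates 2, 3 and 5 and male saline replicates 1, 2, 4, 5 and 6.

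The DNA damage sensor Parp1 ranged over 68.5 to 106 CPM (median 71.7) in male cisplatin and 93.1 to 110 CPM (median 95.8) in male saline. Its log2 fold change in males was -0.29 ± 0.11 (edgeR adjusted p = 0.0672), and averaged over the sexes it fell by 0.26 (adjusted p = 0.0172). The NAD+ glycohydrolase Cd38 had 0.09 ± 0.19 in males (adjusted p = 0.773). Averaged over the sexes, 4 of 17 rose, the same 4 Parp genes, and 3 fell, namely Parp1, Tnks and the mitochondrial NAD+ kinase Nadk2 (-0.33), against 16.2% of all tested genes called higher and 10.9% lower. Parp1 was called in 29 of 30 alternatives to this average, the exception being the tubule marker covariate, Nadk2 in 26 and Tnks in 18. Nadk2 lost its call without male cisplatin replicate 2 or 3 or female cisplatin replicate 4 or 5 (adjusted p at most 0.0702). Tnks lost its call with no filter, or without male cisplatin replicate 3, male saline replicate 1, 2, 4 or 5, female cisplatin replicate 3, 4 or 5, or female saline replicate 1, 3 or 7 (adjusted p at most 0.0829). In females edgeR called 0 of 17, with 6 at an unadjusted p under 0.05, as were 14.8% of all tested genes, and DESeq2 called 0.

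**Figure D5:**
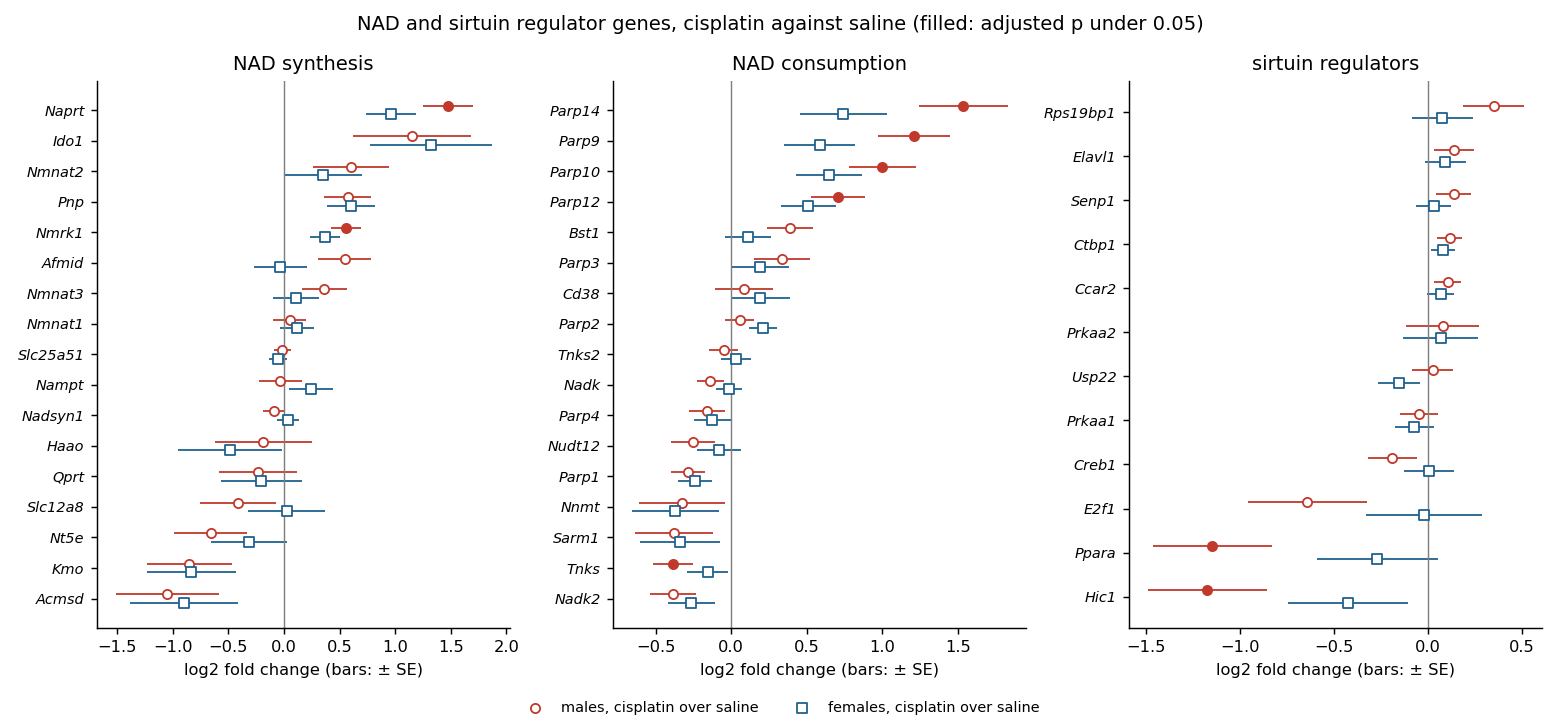
Log2 fold change, cisplatin over saline, on the horizontal axis with bars of 1 SE, for the tested genes of 3 lists, in males (circles) and females (squares); filled symbols passed an adjusted p under 0.05 in edgeR. Naprt (1.48) and Parp14 (1.54) lead the first 2 panels in males, Hic1 (-1.17) and Ppara (-1.15) are lowest in the third panel, and no female symbol is filled.

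Of 12 genes known to regulate Sirt1 transcription or activity, 0 rose and 2 fell in males. Of all tested genes 13.2% were called higher and 7.54% lower there. Hic1, a transcriptional repressor of Sirt1, ranged over 6.82 to 32.4 CPM (median 13.2) in male cisplatin and 24.4 to 44.0 CPM (median 36.7) in male saline, a log2 fold change of -1.17 ± 0.32 (edgeR adjusted p = 0.0128). Ppara, a lipid-sensing nuclear receptor, fell by 1.15 (SE 0.32, adjusted p = 0.0148). Both lost their call once that tubule score was a covariate (adjusted p = 0.0507 and 0.0732), and both were called in the other 18 alternatives, whose lowest adjusted p was 0.000662 for Hic1 and 0.00264 for Ppara. Ccar2, a protein inhibitor of Sirt1, had 0.11 ± 0.07 (adjusted p = 0.293). In females edgeR called 0 of 12, with 0 at an unadjusted p under 0.05, against 14.8% of all tested genes, and DESeq2 called 0.

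Neither the mitochondrial biogenesis genes nor the substrates of the mitochondrial sirtuins held an edgeR call in males, against 20.7% of all tested genes. At an unadjusted p under 0.05 in edgeR were 36.0% of all tested genes in males. Of 12 mitochondrial biogenesis genes edgeR called 0 (4 at an unadjusted p under 0.05, and 1 by DESeq2, Ppargc1b). Ppargc1a, the coactivator that Sirt1 deacetylates, ranged over 30.2 to 108 CPM (median 61.6) in male cisplatin and 58.0 to 134 CPM (median 101) in male saline. That put Ppargc1a at -0.71 ± 0.31 on the log2 scale (edgeR adjusted p = 0.103). Of 19 tested mitochondrial sirtuin substrates edgeR called 0 in males (8 at an unadjusted p under 0.05, and 3 by DESeq2, among them Sdha and Mlycd). At the unadjusted threshold the share of these substrates was not below the 36.0% of all tested genes. Averaged over the sexes, 27.1% of all tested genes were called, 16.2% higher and 10.9% lower. In that comparison 2 of the 12 biogenesis genes fell, Ppargc1b (log2 fold change -0.52, edgeR adjusted p = 0.0398) and Gabpa (-0.24, 0.0424), called in 13 and 14 of 30 alternatives. None of the 19 substrates fell and 4 rose, among them Mlycd (log2 fold change 0.28, edgeR adjusted p = 0.00519), Acadl (0.38, 0.0242) and Slc25a4 (0.30, 0.0288). Mlycd was called in 30 of 30 alternatives to this average, Acadl in 27 and Slc25a4 in 23. Acadl and Slc25a4 were not called with the tubule marker covariate or without female cisplatin replicate 4, and Slc25a4 also not with no filter or without female cisplatin replicate 5, male cisplatin replicate 3 or male saline replicate 3 (adjusted p at most 0.074 for Acadl and 0.0878 for Slc25a4 over all alternatives). In females edgeR called 0 of the 12 and 0 of the 19 (1 and 4 at an unadjusted p under 0.05), and DESeq2 called 0 of both. At that unadjusted threshold in edgeR were 14.8% of all tested genes in females.

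Among nuclear and cytosolic substrates, 3 of 28 rose and 3 fell in males, a share near the 20.7% of all tested genes called there. The cytokine-responsive factor Stat3 (1.11 ± 0.21), the actin-binding protein Cttn (0.52 ± 0.12) and the NF-kB subunit Rela (0.34 ± 0.09) rose, with edgeR adjusted p of 0.00155, 0.00525 and 0.0141. The acetyl-CoA synthetase Acss2 (-0.55 ± 0.11), the acetyltransferase Ep300 (-0.46 ± 0.12) and the TGF-beta mediator Smad3 (-0.45 ± 0.12) fell, with adjusted p of 0.00223, 0.0104 and 0.0133. Stat3 ranged over 151 to 371 CPM (median 264) in male cisplatin and 110 to 135 CPM (median 121) in male saline, and Acss2 over 19.1 to 26.3 CPM (median 22.2) in male cisplatin and 30.1 to 37.8 CPM (median 32.8) in male saline. Neither gene's groups overlapped. Rela lost its call once that tubule score was a covariate and with no filter on low counts (adjusted p 0.00608 to 0.0732 over 19 alternatives), and the other 5 were called in 19 of 19. In females edgeR called 0 of 28, with 2 at an unadjusted p under 0.05, as were 14.8% of all tested genes. DESeq2 called 1 in females, Stat3, whose edgeR log2 fold change was 0.83 ± 0.21 (adjusted p = 0.0929).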

How the data were processed

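The authors deposited whole-number read counts per Ensembl gene identifier for 24 libraries. Per the submitters' processing notes, Trim Galore 0.6.7, Subread 2.0.1 with featureCounts, DESeq2 1.28.1 and the genome build mm10 were used; the aligner, annotation release and strandedness were not given in the sources. Of 55416 identifiers, 52083 had a symbol. The members and gene lists were chosen with earlier results of these data known.

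Tests on the counts used edgeR 4.0.16 in R 4.3.3 (filterByExpr, minimum count 10; TMM scaling; quasi-likelihood fit of 4 group means to 24 libraries), with Benjamini-Hochberg adjustment over 18005 genes. The fit was tested on simulated data. CPM are TMM-scaled, and log2 CPM used a prior count of 2. Exon lengths came from GENCODE vM21 (GRCm38), since 2147 identifiers belong to a newer annotation, and the lengths the authors counted over may differ. Named genes were all 7 sirtuins, fixed regulators, and up to 6 called genes per list by adjusted p. Alternatives were other scalings, DESeq2 1.42.0, no filter, a replicate block, a tubule marker covariate, the compared groups alone, and each library left out. No 2 libraries of a group were copies (chi-square per gene at least 7.23 over 61 pairs). Some genes that the naming rules picked are not reported here.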

Additional observations from a re-analysis of the deposited data

Results flagged for a closer look

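In male saline, Sirt3 in replicate 2 (14.8 CPM) and Sirt4 in replicate 1 (17.9 CPM) each lay far below the other 5 libraries of the group, by a gap of 0.637 and 0.751 of the group's whole range. The critical value for 6 libraries is 0.625. These were 2 of 28 sirtuin and group combinations examined, and chance flags about 1 in 20. Male saline replicate 2 also had the lowest Sirt5 of its group (12.6 CPM).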

How the results depend on the processing

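The calls among the sirtuins were few and close to the threshold. In males, where 3 were called, DESeq2 and DESeq2's size factors in edgeR also gave 3, library totals alone gave 1 (Sirt1), the tubule marker covariate gave 1 (Sirt1), the compared groups alone gave 1 (Sirt6) and no filter gave 0. Leaving out 1 library at a time gave 0 to 3. Averaged over the sexes, where 2 were called, library totals alone and the tubule marker covariate gave 1, no filter gave 0, and leaving out 1 library gave 0 to 3. In the other 4 comparisons no alternative gave a call. Labels do not pair replicate numbers across groups. Deviations of same-numbered libraries had a median r between -0.09 and 0.13, 0 of 6 male and 0 of 5 female cisplatin libraries matched their own number best, and the replicate block gave 2 calls in males (Sirt1 and Sirt6) and 0 for the average. Of the 21 sirtuin pairs, 5 passed with all libraries and 3 without the 2 farthest. DESeq2 called 241 of all genes in females, against 49 in edgeR, 58 against 34 for female saline against male saline and 127 against 28 for female cisplatin against male cisplatin.

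Values that changed sign were all uncalled and near 0. Library totals alone gave a log2 fold change of -0.0105 for Sirt4 in males, -0.0309 for Sirt4 and -0.00677 for Sirt5 averaged over the sexes, 0.0002002 for Sirt2 in female saline against male saline, and 0.019 for Sirt4 and 0.00681 for Sirt5 in female cisplatin against male cisplatin. The tubule marker covariate gave 0.0364 for Sirt5 in males, 0.00976 for Sirt2 and 0.0127 for Sirt4 in females, 0.0765 for Sirt3 in the average and 0.0183 for Sirt2 in female saline against male saline. For Sirt4 in the average, DESeq2 size factors gave -0.00639, DESeq2 -0.00631 and no filter -0.0147. The replicate block gave -0.0142 for Sirt4 and -0.0167 for Sirt5 in the average, 0.00876 for Sirt2 in female saline against male saline and 0.0143 for Sirt4 in female cisplatin against male cisplatin. The cause was not tested.

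With 1 library left out in turn, the ranges that crossed 0 were these. In males they were -0.0311 to 0.129 for Sirt4, -0.15 to 0.0753 for Nampt, -0.0278 to 0.118 for Nmnat1 and -0.00884 to 0.201 for Cd38. In females they were -0.0085 to 0.127 for Sirt3 and -0.0958 to 0.0188 for Sirt4. In the average they were -0.0341 to 0.0509 for Sirt4 and -0.0187 to 0.0678 for Sirt5. For the difference between the sexes Sirt4 ranged over -0.157 to 0.00773. In female saline against male saline they were -0.0434 to 0.0117 for Sirt2, -0.00722 to 0.0814 for Sirt4 and -0.0215 to 0.0734 for Sirt6. In female cisplatin against male cisplatin they were -0.026 to 0.167 for Sirt3, -0.114 to 0.0489 for Sirt4 and -0.118 to 0.055 for Sirt5.

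Sirt1, Sirt6 and Sirt7 kept their direction in males and in the average under every alternative run. No alternative addresses whether fewer cells or less RNA per cell lie behind a level, and 5 female cisplatin libraries limit what the test of the difference between the sexes can resolve.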
